A study of Mus musculus with 8 samples.

Results

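The ubiquitin conjugation and deubiquitinating genes described here are the genes whose array annotation symbol begins with Ube2, Ube3 or Uchl, or is Uba or Usp followed by a digit, with Usp18 left out. The rule found 93 genes with 235 probe sets among the 18193 genes on the array, and each gene was read from its brightest probe set, by the mean over the 8 arrays. They were measured in the striatum of 4 R6/2 mice (numbers 64, 65, 70 and 78) and 4 wild-type mice (numbers 42, 48, 54 and 63), all labelled as females of 85 days on a C57Bl/6 / CBA background, each on an array of its own. The R6/2 transgene is exon 1 of human huntingtin with a long CAG repeat, expressed in most tissues, so the comparison is between whole animals and not between striatal cells that do and do not express it. No agent was given to either group according to the labels. Of 5 wild-type mice that the design text lists, the fifth was not analysed here. Values are log2 expression, a difference is R6/2 minus wild-type with the moderated standard error (SE) of limma, and a gene was called when its Benjamini-Hochberg adjusted p over all 18193 genes was under 0.05.

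Ubiquitin is attached to proteins in a relay. An E1 enzyme (the Uba genes) activates ubiquitin, an E2 enzyme (Ube2) carries it, and an E3 ligase (Ube3 among many other families) selects the protein, while deubiquitinating enzymes of the USP and UCH families remove the tag or trim the chain. The tag sends many proteins to the proteasome, and ubiquitin collects in the huntingtin inclusions that R6/2 neurons are known for.

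In R6/2 striatum 14 of the 93 genes were called higher and 2 lower, and 77 were not called. The larger rises were those of the deubiquitinating enzyme Usp47 (1.52-fold), the ubiquitin E1 Uba6 (1.47-fold), Usp29 (1.39-fold), Usp25 (1.37-fold) and the E2 enzymes Ube2z (1.37-fold) and Ube2w (1.36-fold). The falls were those of Usp28 (1.44-fold) and Usp2 (1.42-fold). No member changed by as much as 2-fold, the largest difference of a member being that of Usp47 at 0.60 ± 0.096 (log2, SE). The 14 rises are 15.1% of the members, where 9.09% of all genes were called higher, and the 2 falls are 2.15%, where 6.19% of all genes were called lower; in either direction 15.3% of all genes were called. The median log2 difference of the members was 0.11, against -0.0034 over all genes.

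These shares moved with brightness. When the dimmest 40% of genes were left out before the test, 15 of the 78 remaining members (19.2%) were called higher and 4 (5.13%) lower, against 16.9% and 10.4% of the 10916 genes in that test, and the medians were 0.12 and 0.058. The 4 wild-type and 4 R6/2 mice did not overlap for 22 members that lay higher and 4 that lay lower in R6/2 mice, against 11.7% and 7.67% of all genes (19.4% in either direction). Among called genes the groups did not overlap for 15 of the 16 members and for 2477 of all 2781 called genes. The 9 members Ube2u, Ube2d2b, Ube2l6, Uchl4, Usp9y, Usp17la, Usp26, Usp44 and Usp50 lay on every array at or below 3.71, the highest value of 7 probe sets of Y-linked genes in these females, so no difference could be read for them. Usp9y, itself Y-linked, was at 3.58 ± 0.13 in wild-type and 3.63 ± 0.056 in R6/2 mice (SD, n = 4 each). Its value in wild-type mouse 63 equals that limit of 3.71, so Usp9y could not lie above it. The probe set of the Y-linked Uba1y is not among the 9 and read 3.98 in R6/2 mouse 78, so 3.71 is not a firm upper limit of background. Usp43, among the 4 members that lay lower without overlap, had a mean of only 3.88.

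**Figure D1:**
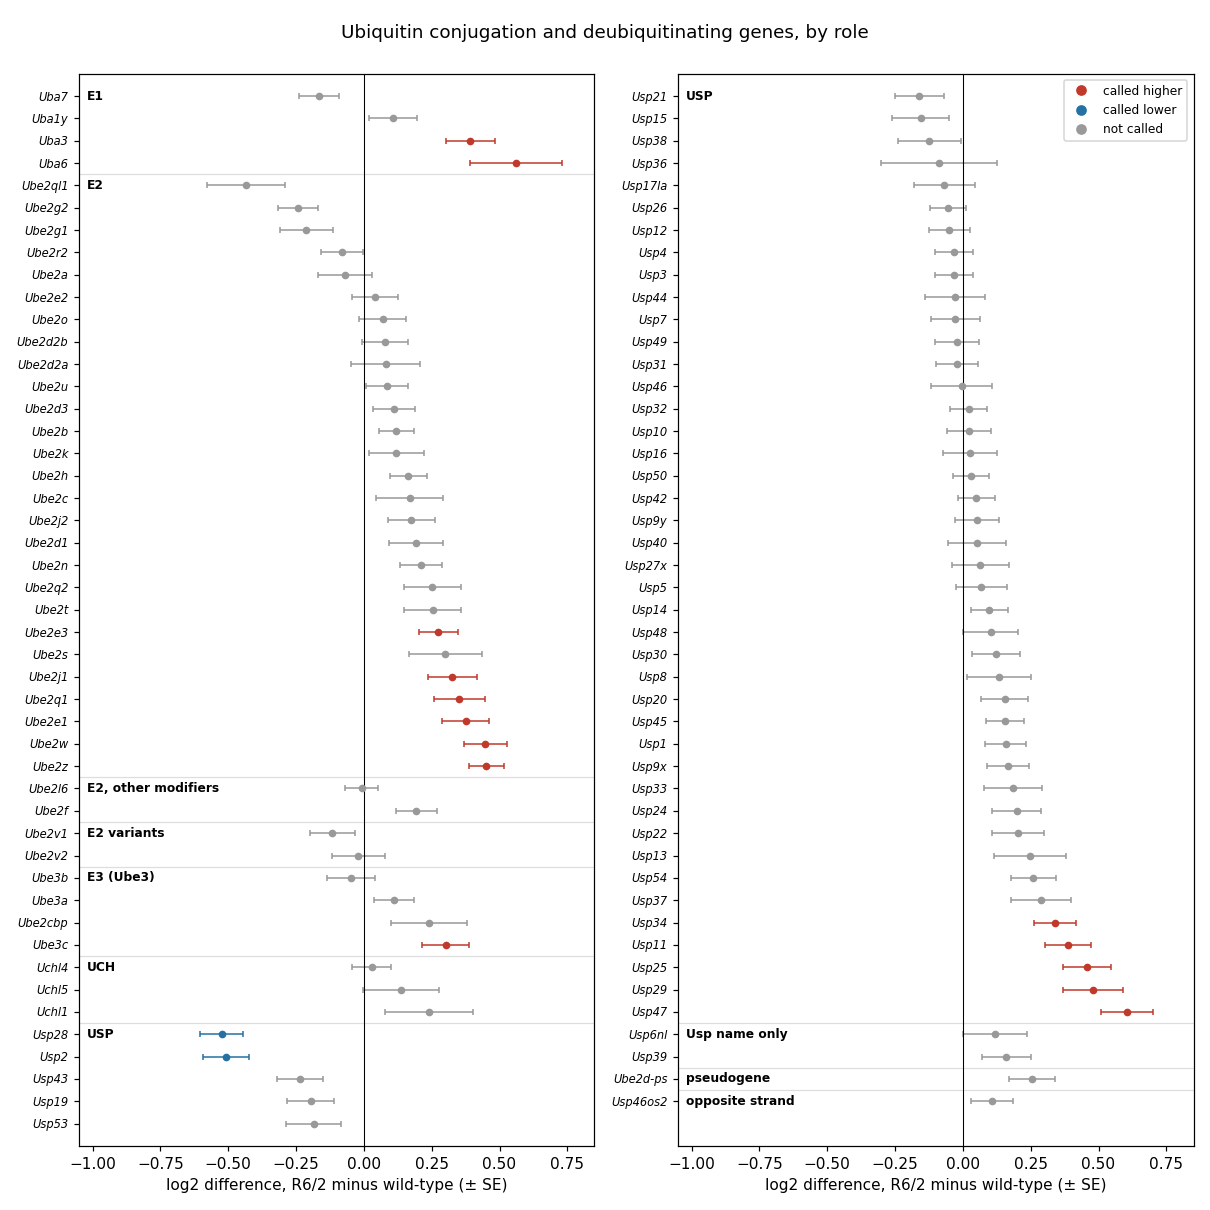
Log2 difference (x axis, R6/2 minus wild-type, bars ± SE) of each of the 93 members, grouped by role, with called rises in red, called falls in blue and genes not called in grey. The 14 red points lie between 0.27 and 0.56 or at 0.60 (Usp47), and both blue points, Usp28 and Usp2, lie near -0.5.

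Control probe sets and cell type markers also differed between the groups. Array medians lay between 5.08 and 5.13. The difference between the 3′ and 5′ control probe sets of Gapdh, a sign of RNA or labelling quality, was 0.41 to 1.19 in wild-type and 0.23 to 0.35 in R6/2 mice, without overlap, and wild-type mouse 42 was highest both there and for actin (2.40, against 1.37 to 1.58 on the other arrays). Without mouse 42, 13 members were called higher, 11 of them among the 14, and the same 2 were lower. Of 8 measured markers of medium spiny neurons, the main neurons of the striatum, 7 fell, with a mean level of 11.42 to 11.75 in wild-type and 10.73 to 10.80 in R6/2 mice. Of 11 markers of cortical projection neurons 3 fell (9 had an unadjusted p under 0.05, and the median difference was -0.68), and their score (mean value minus the wild-type mean) was -0.68 to 0.44 in wild-type and -1.15 to -0.18 in R6/2 mice. By limma, astrocyte markers fell in 4 of 8 cases (7 at an unadjusted p under 0.05) and vascular markers in 3 of 6 (3). Oligodendrocyte markers fell in 1 of 7 (4 at an unadjusted p under 0.05) and microglia markers in 0 of 8 (2). Of 7 choroid plexus and ependymal markers 1 rose and 1 fell, with a median difference of 0.78. Their score spanned -0.90 to 0.89 in wild-type animals and -0.81 to 1.24 in R6/2 animals. Adding the cortical score to the fit left 6 members called higher and 1 lower. The score was lower in R6/2 mice on average (-0.74 from the wild-type mean), so score and genotype cannot be fully told apart in that fit. The shares of all genes called in that fit and without mouse 42 are not given here. In whole tissue, fewer cells of a type and less RNA per cell cannot be told apart, and the part of RNA quality and of the astrocyte and vascular markers in the members' differences was not tested.

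Among the E1 enzymes, 2 of 4 rose and 2 were not called, where 9.09% of all genes were called higher. Uba6, which activates ubiquitin beside the main E1 and hands it to the E2 enzyme Ube2z, was at 6.36, 7.27, 6.79 and 7.16 in wild-type mice 42, 48, 54 and 63 and at 7.45, 7.43, 7.35 and 7.59 in R6/2 mice 64, 65, 70 and 78. All R6/2 values lay above the wild-type values, which spread widely, with mouse 42 lowest. The difference was 0.56 ± 0.17 (adjusted p = 0.0490), and the call was lost without wild-type mouse 42 (0.38, adjusted p = 0.0580) or 54 (adjusted p = 0.106) and without any of the 4 R6/2 mice (adjusted p at most 0.115). It was also lost after quantile normalization (adjusted p = 0.0710), with array weights (adjusted p = 0.0597), without moderation (adjusted p = 0.162) and on adjustment for the cortical score (adjusted p = 0.266). Of the 4 dimmer probe sets of Uba6, 2 were called over all probe sets tested: 1 of them lay at 5.28, 5.04, 4.93 and 5.30 in wild-type and at 5.80, 5.85, 6.23 and 5.88 in R6/2 mice (0.80 ± 0.12, adjusted p = 0.00337), and another differed by 0.71 ± 0.12 (adjusted p = 0.00526). The other two differed by 0.30 (adjusted p = 0.286) and 0.056 (adjusted p = 0.689). Uba3, the catalytic subunit of the E1 for the ubiquitin-like protein NEDD8, went from 8.83 ± 0.15 to 9.22 ± 0.10 (SD, n = 4 each), a difference of 0.39 ± 0.092 (adjusted p = 0.0174), with wild-type mouse 42 highest of its group at 9.02 and below the lowest R6/2 value of 9.11. Its call was lost without wild-type mouse 48 (0.35, adjusted p = 0.0563), without moderation (adjusted p = 0.0576) and on adjustment for the cortical score (adjusted p = 0.0664). Of its dimmer probe sets 1 rose by 0.70 ± 0.13 (adjusted p = 0.00893), and the other differed by 0.25 (adjusted p = 0.289). Uba7, the E1 of the interferon-induced modifier ISG15, differed by -0.17 (adjusted p = 0.163), and Uba1y, a Y-linked E1 gene, by 0.11 at a mean near background.

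E2 enzymes of ubiquitin gave 6 rises among 27 genes (22.2%), with a median of 0.16 and 22 of 27 differences above 0. Of all genes 9.09% were called higher, or 16.9% without the dimmest 40%. Differences above 0 were found for 8962 of all 18193 genes, or 6465 of 10916 without the dimmest 40%. Ube2z, the partner of Uba6, had the smallest adjusted p of all members. It was at 8.23, 8.30, 8.29 and 8.30 in wild-type mice and at 8.74, 8.65, 8.76 and 8.77 in R6/2 mice, so each group spread by less than the gap between them. The difference was 0.45 ± 0.065 (adjusted p = 0.00179). Ube2w, an E2 known for placing ubiquitin on the amino terminus of proteins, was at 8.04, 8.03, 8.12 and 8.03 in wild-type and at 8.65, 8.51, 8.51 and 8.33 in R6/2 mice. Its difference was 0.45 ± 0.080 (adjusted p = 0.00488). Ube2z and Ube2w were called without any single mouse and in all 9 other settings, although their dimmer probe sets moved less, those of Ube2z by 0.28 and 0.031 and those of Ube2w by 0.25, 0.19 and -0.15.

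The other E2 rises were smaller. Ube2e1 went from 9.80 ± 0.039 to 10.17 ± 0.16 (SD, n = 4 each; 0.37 ± 0.087, SE, adjusted p = 0.0169) and was called without any single mouse, though not as the mean of its probe sets (0.13, adjusted p = 0.325), since its dimmer probe set differed by -0.11, nor without moderation (adjusted p = 0.0514) or on adjustment for the cortical score (adjusted p = 0.123). Its relative Ube2e3 went from 9.86 ± 0.059 to 10.14 ± 0.094 (adjusted p = 0.0306). Ube2j1, which sits in the endoplasmic reticulum membrane and serves the degradation of misfolded proteins there, differed by 0.33 ± 0.090 (adjusted p = 0.0348), and Ube2q1 by 0.35 ± 0.093 (adjusted p = 0.0297). Ube2q1 was the only called member whose groups overlapped, R6/2 mouse 65 at 8.86 lying just below wild-type mouse 63 at 8.88. The call of Ube2e3 was lost on leaving out mouse 48, 54, 63, 64 or 70 (adjusted p up to 0.0893), that of Ube2j1 on leaving out any of the same 5 mice (up to 0.0991), and that of Ube2q1 on leaving out mouse 42, 48, 54, 64, 70 or 78 (up to 0.0836); their differences in these fits lay between 0.24 and 0.36. As means of their probe sets Ube2q1 (0.12, adjusted p = 0.409) and Ube2e3 (0.17, adjusted p = 0.154) were not called, their dimmer probe sets being at -0.11 and 0.058. Without moderation Ube2q1 (adjusted p = 0.0818) and Ube2j1 (adjusted p = 0.0839) lost the call, as did Ube2e3 on adjustment for the cortical score (adjusted p = 0.0655).

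E2 genes that were not called included some of the best known. Ube2k, first isolated as the huntingtin-interacting protein HIP2, was at 9.77, 9.66, 9.64 and 9.77 in wild-type and at 9.94, 9.54, 9.97 and 9.88 in R6/2 mice, with R6/2 mouse 65 below every wild-type mouse. Its difference was 0.12 ± 0.10 (adjusted p = 0.471, 95% confidence interval -0.10 to 0.34). Ube2n, which builds K63-linked chains, differed by 0.21 ± 0.078 (adjusted p = 0.0992), Ube2b, the brightest of these E2 probe sets, by 0.12 ± 0.064 (adjusted p = 0.250), and Ube2f, an E2 for NEDD8, by 0.19 ± 0.074 (adjusted p = 0.108). Of the E2 variants, which resemble E2 enzymes but have no catalytic cysteine, Ube2v1 was at 10.73 ± 0.057 and 10.61 ± 0.13 (SD, n = 4 each) and Ube2v2 differed by -0.020. The lower E2 values that came closest to a call were those of Ube2g2, an E2 of endoplasmic reticulum degradation, at -0.24 ± 0.075 (adjusted p = 0.0535), and Ube2ql1, at -0.43 ± 0.14 (adjusted p = 0.0666). Ube2g2 was called in 3 of the 9 other settings (adjusted p at most 0.0389) and without wild-type mouse 63 (adjusted p = 0.0255), and Ube2ql1 in 3 of the 9 (at most 0.0483) and without wild-type mouse 54 (adjusted p = 0.0147). The pseudogene Ube2d-ps, which the rule also takes in, differed by 0.25 ± 0.086 (adjusted p = 0.0719) and was called with array weights (0.28, adjusted p = 0.0288) and without wild-type mouse 42 (0.30, adjusted p = 0.0425).

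Of 4 ligase genes of the Ube3 class, counting Ube2cbp, which is also known as Ube3d, 1 rose, against 9.09% of all genes. Ube3c, a ligase that lengthens chains on proteins held at the proteasome, went from 7.87 ± 0.11 to 8.17 ± 0.13 (SD, n = 4 each), a difference of 0.30 ± 0.088 (adjusted p = 0.0426). Leaving out R6/2 mouse 78 kept the call of Ube3c; without any other single mouse its adjusted p lay between 0.0552 (R6/2 mouse 65) and 0.118 (R6/2 mouse 70). It was lost as well as the mean of its probe sets (0.11, adjusted p = 0.322), with dimmer ones at 0.14 and -0.10, after quantile normalization (adjusted p = 0.0653), without moderation (adjusted p = 0.0894) and on adjustment for the cortical score (adjusted p = 0.155). Ube3a, the ligase lost in Angelman syndrome, was at 10.13, 9.93, 10.05 and 9.99 in wild-type and at 10.10, 10.18, 10.05 and 10.22 in R6/2 mice. The groups overlapped, and the difference was 0.11 ± 0.074 (adjusted p = 0.355, 95% confidence interval -0.052 to 0.28).

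Among the hydrolases of the UCH family none of 3 was called by limma, and none had an unadjusted p under 0.05. Uchl1, an abundant deubiquitinating protein of neurons, was at 10.77, 10.64, 10.52 and 10.82 in wild-type and at 11.04, 10.90, 11.34 and 10.44 in R6/2 mice. R6/2 mice 64, 65 and 70 lay above every wild-type mouse and R6/2 mouse 78 below them all, and the difference was 0.24 ± 0.16 (adjusted p = 0.361, 95% confidence interval -0.12 to 0.60). Uchl5, which works on the proteasome, differed by 0.14 ± 0.14 (adjusted p = 0.566).

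USP proteases, the largest class with 47 genes, gave 5 rises, 2 falls and 40 genes that were not called, with a median of 0.050. The rises were 10.6% and the falls 4.26%, against 9.09% and 6.19% of all genes. Usp47, which acts on DNA polymerase beta among other proteins, was at 8.85, 8.76, 8.73 and 8.69 in wild-type mice and at 9.44, 9.09, 9.51 and 9.41 in R6/2 mice. The lowest R6/2 value, that of mouse 65, lay above all wild-type values. The difference was 0.60 ± 0.096 (adjusted p = 0.00280), while its dimmer probe sets differed by 0.16 (adjusted p = 0.230) and 0.25 (adjusted p = 0.253). Usp34, a very large protease linked to Wnt signalling through axin, rose by 0.34 ± 0.076 (adjusted p = 0.0143) and was called, like Usp47, in every setting tried. Usp11 went from 9.31 ± 0.11 to 9.70 ± 0.11 (SD, n = 4 each), a difference of 0.39 ± 0.085 (SE, adjusted p = 0.0128). On adjustment for the cortical score its difference changed little, to 0.37, but the call was lost (adjusted p = 0.104). Usp29, an imprinted gene expressed from the paternal copy, went from 6.93 ± 0.23 to 7.41 ± 0.067 (SD, n = 4 each; adjusted p = 0.0157), and its call was lost without wild-type mouse 48 (adjusted p = 0.0502) or R6/2 mouse 70 (adjusted p = 0.0509), without moderation (adjusted p = 0.0702) and on adjustment for the cortical score (adjusted p = 0.0739).

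Usp2, whose transcript follows the circadian clock in many tissues, was at 9.70, 9.46, 9.44 and 9.35 in wild-type and between 8.92 and 9.04 in the 4 R6/2 mice. The R6/2 mice were close together and all lower, for a difference of -0.51 ± 0.085 (adjusted p = 0.00348). Its other probe set gave nearly the same fall, -0.48 ± 0.082 (adjusted p = 0.00613), from 9.44 ± 0.13 to 8.95 ± 0.062 (SD, n = 4 each). The labels used here give no time of day at which tissue was taken. Adjusted for the cortical score, the difference of Usp2 was -0.41 (adjusted p = 0.0595).

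Usp25 and Usp28 are close relatives, and their transcripts went in opposite directions. Usp28, a protease known from the DNA damage response and from MYC stability, was at 7.49, 7.21, 7.33 and 7.24 in wild-type mice and at 6.84, 6.80, 6.80 and 6.73 in R6/2 mice. Usp25 was at 6.11, 6.10, 6.00 and 6.23 in wild-type mice and at 6.42, 6.76, 6.51 and 6.58 in R6/2 mice. Neither gene's groups overlapped. Usp28 fell by 0.52 ± 0.079 (adjusted p = 0.00210) and was called in every setting tried. It has 1 probe set, so averaging or leaving out probe sets could not change its difference. Usp25 rose by 0.46 ± 0.089 (adjusted p = 0.00726). On adjustment for the cortical score its difference changed little, to 0.42, but the call was lost (adjusted p = 0.0789). The dimmer probe set of Usp25 differed by 0.092 (adjusted p = 0.620). Between the brightest probe sets of Usp25 and Usp28 the changes differed by 0.98 ± 0.12 (SE, 4 mice a group). An exact 2-sided permutation test gave p = 0.0286, the smallest value its 70 arrangements allow, or 0.126 adjusted over the 22 pairs of relatives compared. A pair could pass that adjustment only if many pairs shared this smallest value.

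The promoter windows of Usp25 and Usp28, which moved apart, and of Usp2, the other member that fell, are shown from 250 bases before to 50 bases after the transcript start (RefSeq, GRCm38.p6). Capitals mark matches to the GC box GGGCGG, the motif bound by Sp1-type factors, or to CCAAT, on either strand; CACGTG (an E-box) and TGACGTCA (a cyclic AMP response element) were searched as well and had no match in these windows. Usp25 is at chr16:77013819-77014118 (+), Usp28 at chr9:48985135-48985434 (+) and Usp2 at chr9:44084670-44084969 (+).
Usp25: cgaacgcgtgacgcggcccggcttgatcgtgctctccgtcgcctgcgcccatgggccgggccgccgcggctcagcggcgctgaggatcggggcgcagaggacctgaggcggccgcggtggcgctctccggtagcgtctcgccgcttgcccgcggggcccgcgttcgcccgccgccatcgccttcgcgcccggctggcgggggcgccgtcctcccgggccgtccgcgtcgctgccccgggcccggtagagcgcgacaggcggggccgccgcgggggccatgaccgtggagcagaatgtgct
Usp28: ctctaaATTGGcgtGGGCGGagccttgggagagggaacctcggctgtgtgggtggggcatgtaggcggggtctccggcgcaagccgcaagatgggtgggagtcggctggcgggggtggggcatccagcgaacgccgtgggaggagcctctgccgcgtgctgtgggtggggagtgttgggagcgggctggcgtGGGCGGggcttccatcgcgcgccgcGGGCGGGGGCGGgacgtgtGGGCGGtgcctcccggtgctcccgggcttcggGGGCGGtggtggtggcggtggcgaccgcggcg
Usp2: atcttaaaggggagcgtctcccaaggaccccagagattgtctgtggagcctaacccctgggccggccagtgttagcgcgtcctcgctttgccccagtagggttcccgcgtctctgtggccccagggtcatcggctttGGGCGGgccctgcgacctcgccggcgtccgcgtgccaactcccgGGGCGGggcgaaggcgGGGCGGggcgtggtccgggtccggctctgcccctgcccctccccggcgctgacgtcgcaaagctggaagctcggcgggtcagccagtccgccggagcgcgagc
The window of Usp28 held 6 GC boxes, 2 of them adjacent, and 1 CCAAT, that of Usp2 held 3 GC boxes, and that of Usp25 held neither motif in spite of a GC content of 79%. A GC box was found in 35.7% of 32851 mouse promoter windows of this length and in 59 of 85 windows of the members (69.4%), and among the 13 called members with a window in 10. CCAAT was found in 37.4% of all windows and 21 of the 85, CACGTG in 7.15% and 8, and TGACGTCA in 1.79% and 3. Among called members Ube2q1 held 2 CACGTG and Usp29 held 1 TGACGTCA. Windows of Uba6, Ube2e3 and Ube2w were not used here. These matches describe the letters only.

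Changes within related members were set side by side for 22 pairs from 16 families of similar sequence. In 5 pairs the per-mouse difference between both genes did not overlap between the groups, which gives the smallest exact p of 0.0286 each, or 0.126 adjusted over the 22 pairs, so none passed after adjustment. Beside Usp25 and Usp28 these were Usp7 and Usp47 (-0.028 against 0.60), Usp4 and Usp11 (-0.034 against 0.39), and Ube2e2 against Ube2e1 (0.041 against 0.37) and against Ube2e3 (0.041 against 0.27). In the remaining 17 pairs the exact p ranged from 0.0571 to 0.971. With so few arrangements, a pair could pass after adjustment only if many of the 22 pairs shared the smallest p. The adjusted values therefore cannot decide about a single pair. Members of a family can share sequence, and how far a probe set reads its relatives was not tested.

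**Figure D2:**
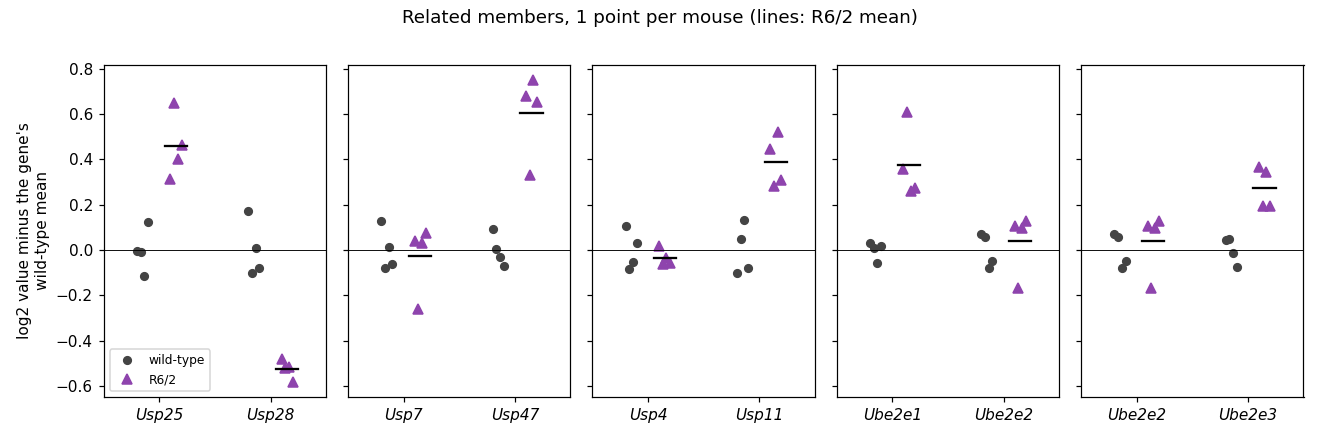
Values of the 5 pairs with the smallest exact p, each as log2 value minus the gene's own wild-type mean (y axis), with a circle per wild-type mouse, a triangle per R6/2 mouse and a line at the R6/2 mean. Usp25 lies above and Usp28 below 0 in all 4 R6/2 mice, while Usp7, Usp4 and Ube2e2 stay around 0 beside relatives that lie above it.

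Other USP genes with known roles at the proteasome or in neurons were not called by their brightest probe set. Usp14, the deubiquitinating enzyme held by the proteasome, was at 9.06, 8.97, 9.04 and 8.90 in wild-type and at 9.16, 9.07, 9.07 and 9.06 in R6/2 mice, a difference of 0.098 ± 0.069 (adjusted p = 0.381). Usp7, which acts on Mdm2 and p53, was at 9.91 ± 0.094 and 9.88 ± 0.15 (SD, n = 4 each; -0.028, adjusted p = 0.872), and its sign turned in 5 of 17 other fits. Usp46, which acts at glutamate receptors, differed by -0.0042 ± 0.11 (adjusted p = 0.986), with a sign that also depended on the setting. Usp32, the brightest USP probe set, lay at 10.40 ± 0.078 and 10.42 ± 0.025 (SD, n = 4 each). Usp54 came closest to a call among the rises, at 0.26 ± 0.083 (adjusted p = 0.0585), and was called in 3 of the 9 other settings and without wild-type mouse 63 (adjusted p = 0.0389). Usp39, which belongs to the spliceosome, differed by 0.16 (adjusted p = 0.263) and was called with _s_at and _x_at probe sets left out (0.29, adjusted p = 0.0368), and Usp46os2, a transcript opposite Usp46 that the rule takes in, by 0.11 (adjusted p = 0.388).

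**Figure D3:**
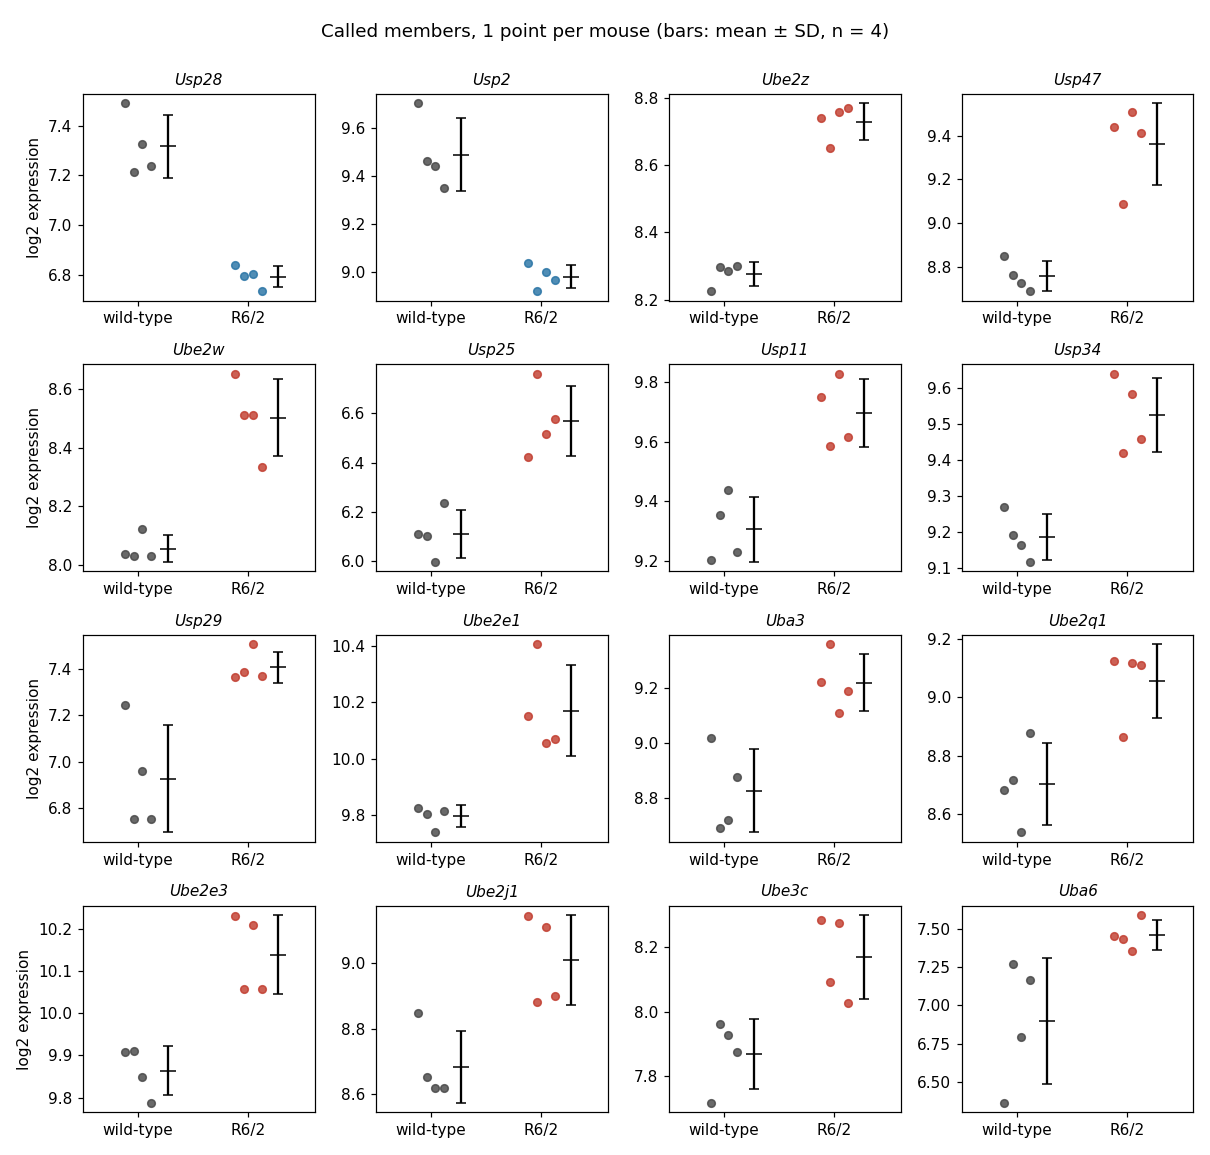
Log2 expression (y axis, a separate range in each panel) of the 16 called members, with a point per mouse, wild-type in grey, R6/2 in red for genes called higher and in blue for genes called lower, and bars for mean ± SD (n = 4 each). Points of both groups overlap in the panel of Ube2q1 alone.

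The call depended on the choice of probe set for some members, and 69 members had more than 1. Of the 235 probe sets, 27 were called higher and 6 lower when all 45037 probe sets were tested, where 5.54% and 4.59% of all probe sets were called in these directions. Of the 142 dimmer probe sets of members 19 were called, where 10.1% of all probe sets were called in either direction. For 12 members that were not called by their brightest probe set, a dimmer one was called, and for 5 of these 15 probe sets the sign was the opposite. The share of such genes among all genes is not given here. Usp9x, the X-linked protease, was at 8.21 ± 0.12 and 8.38 ± 0.039 on its brightest probe set (0.16 ± 0.078, SE, adjusted p = 0.188), while another at similar brightness went from 8.04 ± 0.097 to 8.50 ± 0.10 (SD, n = 4 each; 0.45 ± 0.081, SE, adjusted p = 0.00778). On that probe set the wild-type mice lay at 8.16, 8.01, 8.06 and 7.93 and the R6/2 mice at 8.48, 8.50, 8.62 and 8.37. The mean of all probe sets of Usp9x was called (0.27, adjusted p = 0.0204), and so was that of Ube2d3 (0.38, adjusted p = 0.0182), the widely used E2 whose dimmer probe sets rose by 0.41 and 0.48.

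A second probe set of Ube2a, an E2 of the RAD6 type, rose from 8.22 ± 0.094 to 8.72 ± 0.14 (SD, n = 4 each; adjusted p = 0.00835), where the brightest differed by -0.071. For its relative Ube2b a dimmer probe set fell by 0.50 ± 0.073 (adjusted p = 0.00316), where the brightest differed by 0.12. A dimmer probe set of Usp7 fell by 0.39 ± 0.073 (adjusted p = 0.00967), with R6/2 values of 7.41, 7.49, 7.59 and 7.48 against 7.81 or more in every wild-type mouse. A dimmer probe set of Usp14 rose from 8.51 ± 0.045 to 8.92 ± 0.18 (SD, n = 4 each; adjusted p = 0.0227). Dimmer probe sets also rose in Ube2d2a, Ube2f, Usp3, Usp15 and Usp19 and fell in Usp36. Which exons or transcript ends these probe sets read was not tested. Conversely, among the 14 called members with further probe sets, 20 of the 24 further probe sets had the sign of the brightest and 4 were called, those of Uba3, Uba6 (2 probe sets) and Usp2.

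**Figure D4:**
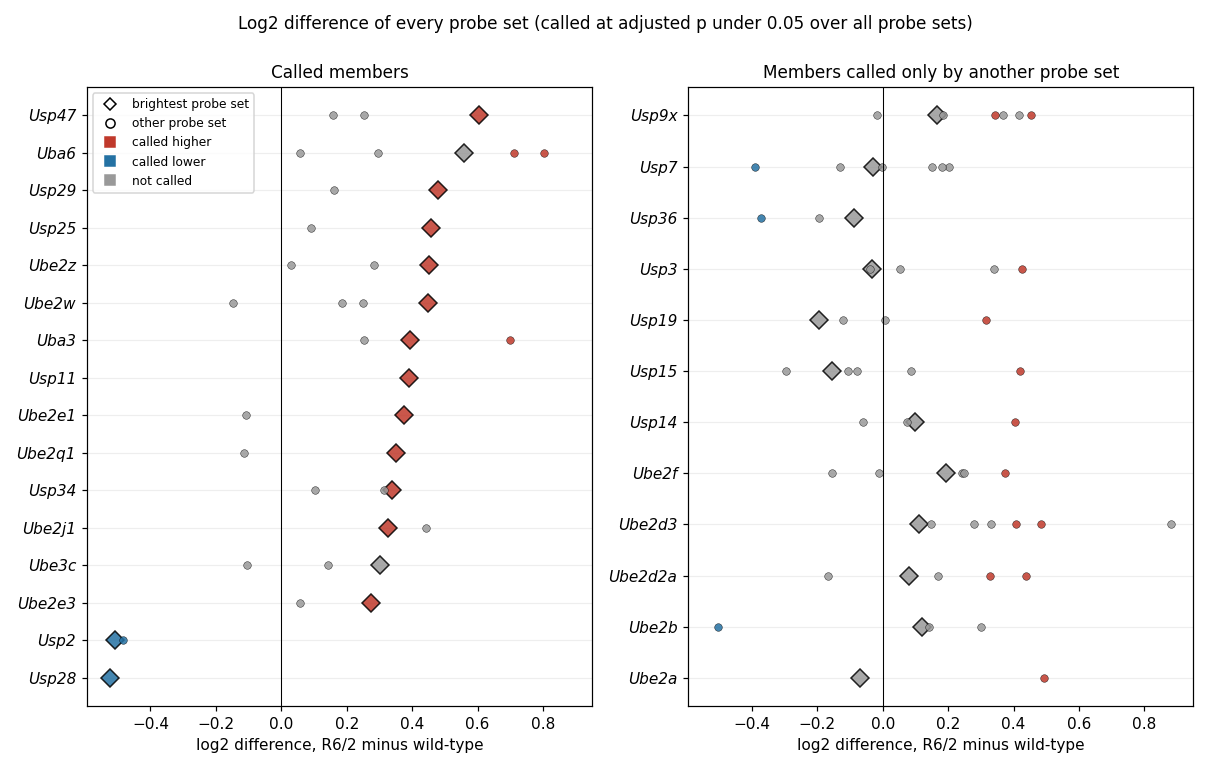
Log2 difference (x axis, R6/2 minus wild-type) of every probe set of the 16 called members (left) and of the 12 members for which only a dimmer probe set was called (right), with a diamond for the brightest probe set and circles for the others. Colours give the call over all probe sets, so the brightest probe sets of Uba6 and Ube3c, called only over genes, are grey; the circles of Usp7 and Ube2b lie on both sides of 0.

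Genes of the wider ubiquitin system, from a list of 143 measured genes outside the rule, were called higher in 24 and lower in 9 cases (16.8% and 6.29%), beside the same 9.09% and 6.19% of all genes, with a median of 0.11. Leaving out the dimmest 40% of genes gave 19.3% and 7.86%, against 16.9% and 10.4%. The core and adaptors of cullin-RING ligases gave 5 rises and 1 fall among 23 genes: the cullin Cul4b rose by 0.48 ± 0.080 (adjusted p = 0.00358; 0.0573 on adjustment for the cortical score), and Cand1, which exchanges the substrate adaptors of cullins, went from 8.24 ± 0.12 to 8.74 ± 0.083 (SD, n = 4 each; adjusted p = 0.00293). The modifier NEDD8, which activates cullins and is the substrate of Uba3, had its gene Nedd8 higher by 0.30 ± 0.082 (adjusted p = 0.0336). Sumo3, a SUMO modifier, rose by 0.45 ± 0.072 (adjusted p = 0.00280), but with probe sets of the _s_at and _x_at types left out it differed by -0.062 (adjusted p = 0.645), and as the mean of its probe sets by 0.20 (adjusted p = 0.0673).

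Ligases of the HECT and RBR families gave 1 rise and 5 falls among 23 genes, and their median was 0.15. Of all genes 9.09% were called higher and 6.19% lower. Nedd4l, a ligase of ion channels, was at 9.90, 9.88, 10.11 and 9.51 in wild-type and at 9.04, 9.45, 8.93 and 9.04 in R6/2 mice, a difference of -0.73 ± 0.14 (adjusted p = 0.00689). Smurf1, a ligase of TGF-beta signalling, fell by 0.65 ± 0.11 (adjusted p = 0.00422), Hecw2 by 0.55 ± 0.098 (adjusted p = 0.00503), Rbck1 by 0.40 and Wwp1 by 0.27, while Arih1 rose by 0.33. Smurf1 was not called as the mean of its probe sets (-0.23, adjusted p = 0.0648), and on adjustment for the cortical score neither Smurf1 (adjusted p = 0.0590) nor Hecw2 (adjusted p = 0.0624) was called. RING and U-box ligases gave 5 rises and 2 falls among 34 genes, with Cblb at 0.46 ± 0.072 (adjusted p = 0.00261; 0.14 and adjusted p = 0.176 as the mean of its probe sets) and Trim9, a neuronal ligase, at -0.87 ± 0.13 (adjusted p = 0.00193), which was -0.063 (adjusted p = 0.818) with those probe set types left out and -0.49 (adjusted p = 0.0637) as the mean of its probe sets. The list of other deubiquitinating enzymes gave 6 rises and 1 fall among 35 genes, led by Otud6b at 0.41 ± 0.071 (adjusted p = 0.00453). It is wider than its name, as it also holds the Senp proteases of SUMO or NEDD8. Subunits of larger complexes such as Cops5, Cops6 and Psmd7 are in it too, and Senp6 and Psmd7 were among the rises. Ubiquitin shuttles, receptors and the p97 adaptors gave 4 rises among 18 genes, among them the autophagy receptor Sqstm1 (0.46 ± 0.10, adjusted p = 0.0156). The differences between these lists were not tested.

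**Figure D5:**
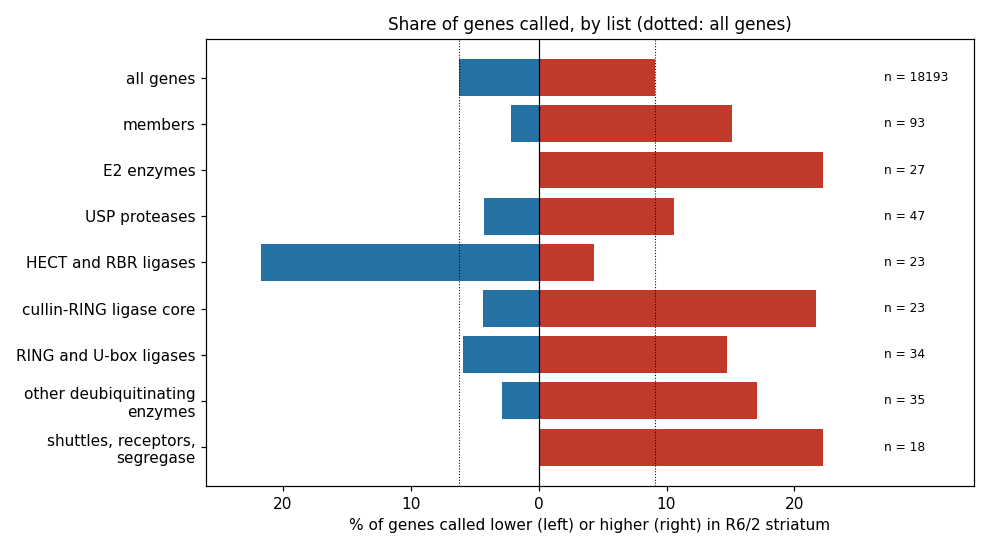
Percent of genes called lower (left, blue) or higher (right, red) in R6/2 striatum, for all genes, the 93 members, the 2 largest member classes and 5 lists of other ubiquitin genes, with n the number of genes and dotted lines at the shares of all genes (6.19% and 9.09%). The HECT and RBR ligases have the longer bar on the left (21.7%), and the E2 enzymes and the shuttle list have a bar on the right only (22.2% each). Dim genes are included in the dotted lines. Without the dimmest 40% of genes, 10.4% of all genes were called lower and 16.9% higher, and of the members 5.13% and 19.2%.

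The counts of calls changed when single mice were left out, which also left fewer arrays to test. How many of all genes were called in these fits is not given here. Without wild-type mouse 48 or R6/2 mouse 70 the members called higher numbered 8 in each case, and without wild-type mouse 54 or R6/2 mouse 64 they numbered 9, all of them among the 14; the members called lower numbered 2 or 3 and always held Usp2 and Usp28. Of the 16 called members, 9 were called without any single mouse: Ube2e1, Ube2w, Ube2z, Usp2, Usp11, Usp25, Usp28, Usp34 and Usp47. Ube2w, Ube2z, Usp28, Usp34 and Usp47 were called in all 17 other fits. For Usp28, with 1 probe set, the settings that changed the choice of probe sets used the same values as the main fit.

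The main E1 Uba1 and the NEDD8 E2 Ube2m were not analysed here.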

How the data were processed

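Striatal RNA of 8 mice was hybridised to Affymetrix arrays, 1 per mouse. The authors deposited a log2 value for each probe set on each array; the submitters' processing notes name RMA and affy, but the set of arrays normalized together is not stated there. Of 45101 rows, 64 controls were left out; 34945 probe sets had 1 gene symbol in the platform annotation, and 9 that joined a member to other genes were not used. By Entrez ID, 92 of 93 members matched RefSeq (GRCm38.p6) under the same symbol.

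Per gene the probe set with the highest mean was tested (R 4.3.3, limma 3.58.1, lmFit and eBayes, 8 arrays), with Benjamini-Hochberg adjustment over 18193 genes. All probe sets were tested likewise. RMA compresses differences of dim probe sets, and the number of arrays limits precision. The fit was tested on simulated data with 200 of 18193 genes changed, fewer than the 2781 genes called here. Added log2 changes of 0.3, 0.5, 1 and 2 were called in the right direction in 16.4%, 58%, 94.4% and 99.6% of cases. Unchanged genes made up 4.96% of the calls. In that setting most changes of 0.3 were missed. Related pairs were compared by an exact 2-sided permutation test. Called members, a fixed set of genes of known roles and the brightest member of each class are named, besides up to 8 other ubiquitin genes with the smallest adjusted p; others were named after their values were seen. Members, lists, families and motifs were chosen with earlier results of these data known. Alternatives were quantile normalization, median centring, leaving out dim genes, the mean of all probe sets, no _s_at or _x_at probe sets, trend with robust moderation, no moderation, array weights, the cortical covariate and leaving out each mouse. Figures used Python 3.11.15 and matplotlib 3.10.9.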

Additional observations from a re-analysis of the deposited data

Results flagged for a closer look

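Among 82 groups of 4 mice (41 named genes, both genotypes), 7 held a mouse far from the other 3 by Dixon's criterion, where chance gives about 1 in 20 groups. Wild-type mouse 42 stood apart for Ube2j1 at 8.85, the others lying between 8.62 and 8.65. Wild-type mouse 54 was high for Ube2w at 8.12 (others 8.03 to 8.04) and low for Usp32 at 10.28 (others 10.43 to 10.45). R6/2 mouse 65 was low for Ube2q1 at 8.86 (others 9.11 to 9.12) and for Usp7 at 9.65 (others 9.94 to 9.99). R6/2 mouse 64 was high for Usp14 at 9.16 (others 9.06 to 9.07), and R6/2 mouse 78 was low for Usp32 at 10.38, the other 3 values being equal at 10.43.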

How the results depend on the processing

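No paired analysis was made, because the labels used here name no litter or pairing of the mice. Of 272 refits of the 16 called members, 217 kept the call, 55 lost it and none changed sign. Members called higher numbered 7 without moderation, 6 on adjustment for the cortical score, and 8 to 13 without 1 mouse; in the other settings there were 12 to 16. Members called lower numbered 4 after quantile normalization, 4 without the dimmest 40% of genes and 1 with the cortical covariate, and 2 to 3 without 1 mouse. Other ubiquitin pathway genes called higher numbered 12 without moderation, 11 with the cortical covariate and 13 to 24 without 1 mouse (13, 15 and 14 on leaving out mouse 48, 70 or 78); those called lower numbered 3 with the cortical covariate and 6 to 10 without 1 mouse. Shares of all genes called are given here for the main fit and without the dimmest 40% of genes, not for the other settings. The cause of these shifts was not tested.

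Signs turned for members near 0. Usp7 was at 0.20 without _s_at or _x_at probe sets, 0.032 with array weights, 0.058 with the cortical covariate and -0.063 to 0.049 without 1 mouse, above 0 without wild-type mouse 42 (0.014) or R6/2 mouse 65 (0.049). Usp46 was at 0.0086 after quantile normalization, 0.0083 after median centring, 0.16 as a mean of probe sets, 0.056 with array weights, 0.14 with the cortical covariate, and -0.091 to 0.079 without 1 mouse, above 0 on leaving out mouse 42 (0.023), 54 (0.0083), 65 (0.079) or 78 (0.047). Usp32 was at -0.14 as a mean of probe sets and -0.017 to 0.038 without 1 mouse, below 0 without wild-type mouse 54, Usp9y at -0.018 with the cortical covariate, and Sumo3 at -0.062 without _s_at or _x_at probe sets.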
